A study of Homo sapiens with 12 samples.

Results

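The genes described here are 42 components of replication origins and replication forks, chosen by name from their known roles, with earlier results of these data known, out of 19225 gene entries in the counts table. All 42 were measured in every library and passed the filter on low counts. RNA was sequenced from HN6 and HN30, established cell lines of oral squamous cell carcinoma (OSCC), 24 h after transfection with Lipofectamine RNAiMAX. Each line received a scrambled siRNA as negative control (NC) or siFAT1-1 or siFAT1-2, a pair of siRNAs against FAT1, an atypical cadherin. FAT1 knockdown (KD) means either of them. Each of the 6 conditions was repeated at 2 separate times, giving 12 libraries, 4 of NC and 8 of KD. Some sample labels write the siRNAs as sh1 and sh2, but their descriptions and the study's methods name transient siRNA, so every KD library is a transfected pool of cells and no clone was selected.

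DNA replication starts where the origin recognition complex (ORC) binds DNA and, with CDC6 and CDT1, loads the MCM helicase in G1 phase. In S phase the kinase CDC7 with its activator DBF4, and then CDC45 and the GINS complex, turn the helicase into a moving fork, where DNA polymerase alpha-primase starts each strand and polymerases epsilon and delta extend the leading and the lagging strand. The clamp loader RFC places the sliding clamp PCNA, RPA covers single-stranded DNA, FEN1 and LIG1 process and join Okazaki fragments, and TIMELESS, TIPIN, CLSPN and WDHD1 hold the fork together. Many of these genes are transcribed by E2F factors at the boundary of G1 and S phase. TCF19, named for a transcription factor of the late growth phase, was added to the members and is not itself a component of an origin or a fork.

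E2F words lay in the promoters of many members, and stretches are shown for those whose levels fell furthest in HN30 with siFAT1-1. Promoter windows of RefSeq (GRCh38.p14), from 250 bases before to 50 bases after a start site, matched 38 of the 42 members in 49 windows, with no entry for GINS4, POLD3, RPA2 and RPA3. The words TTTCCCGC, TTTCGCGC, TTTGCCGC and TTTGGCGC, read on both strands, were in 17 of these 49 windows (34.7%), 1 window for each of 17 members, and in 3.31% of all 35116 windows. The 17 were ORC3, CDC6, CDT1, GMNN, GINS1, GINS2, GINS3, CDC7, POLA1, POLA2, POLE, POLE2, PCNA, RFC3, LIG1, TIPIN and CLSPN. The NF-Y word CCAAT was in 46.9% of the member windows and 34.6% of all windows. The CHR words TTTGAA and TTCGAA were in 4.08% of the member windows, those of DBF4 and POLE3, and in 16.4% of all windows. A word is a run of letters and not evidence of binding.

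The first 6 stretches are from members with an E2F word, in capitals, chosen after the values were seen, for the lowest log2 fold changes with siFAT1-1 in HN30 among the 17. RFC1 and ORC2 follow as members without an E2F word that were not lower there, taken from the 3 largest rises over both lines. ORC4, the largest rise, had more than 1 window and was left out. This choice set word and fall together in advance, so no link between them can be read from the stretches. In HN30 siFAT1-1, members with a window and no E2F word had log2 fold changes as low as -2.58 (CDC45), -2.49 (TCF19), -2.39 (TIMELESS) and -2.16 (FEN1). Each stretch runs 5′ to 3′ on the strand of its gene and ends at the start site or a few bases past it.
POLA1: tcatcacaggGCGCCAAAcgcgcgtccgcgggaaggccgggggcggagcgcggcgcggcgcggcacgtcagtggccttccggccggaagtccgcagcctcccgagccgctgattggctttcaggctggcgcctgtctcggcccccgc
POLE2: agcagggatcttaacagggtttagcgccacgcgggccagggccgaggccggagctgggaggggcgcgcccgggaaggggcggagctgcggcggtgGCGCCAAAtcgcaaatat
POLA2: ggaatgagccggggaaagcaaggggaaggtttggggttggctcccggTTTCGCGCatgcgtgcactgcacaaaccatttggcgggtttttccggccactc
CLSPN: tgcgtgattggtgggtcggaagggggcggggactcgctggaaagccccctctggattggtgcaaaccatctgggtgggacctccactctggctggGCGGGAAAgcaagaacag
PCNA: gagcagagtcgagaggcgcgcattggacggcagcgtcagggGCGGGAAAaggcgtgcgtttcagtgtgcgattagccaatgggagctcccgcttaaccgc
LIG1: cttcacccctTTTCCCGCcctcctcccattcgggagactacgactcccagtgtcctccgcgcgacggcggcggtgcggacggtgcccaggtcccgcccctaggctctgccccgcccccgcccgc
RFC1: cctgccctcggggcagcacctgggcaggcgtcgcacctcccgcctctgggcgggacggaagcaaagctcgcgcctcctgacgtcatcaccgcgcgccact
ORC2: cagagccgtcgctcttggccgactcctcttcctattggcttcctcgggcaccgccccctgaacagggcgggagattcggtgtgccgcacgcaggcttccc
In GRCh38.p14 the stretches of POLA1 (chrX:24693771-24693917) and POLA2 (chr11:65261862-65261961) are on the plus strand. Those of POLE2 (chr14:49688202-49688314), CLSPN (chr1:35769966-35770078), PCNA (chr20:5126623-5126722), LIG1 (chr19:48170345-48170468), RFC1 (chr4:39366363-39366462) and ORC2 (chr2:200963661-200963760) are on the minus strand. The word began 137 bases before the start site in POLA1, 114 in LIG1, 59 in PCNA, 53 in POLA2 and 5 in both POLE2 and CLSPN. In LIG1 and POLA2 it read in the direction of the gene, and in the other 4 on the opposite strand. Of the 17 members with an E2F word, 16 fell with siFAT1-1 in HN30 (median log2 fold change -1.72), and of the 21 members with a window and no E2F word 16 fell (median -1.35). Over both lines and siRNAs the medians were -0.60 for each, with 6 of 17 and 8 of 21 lower.

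FAT1, the target of the siRNAs, lay below both NC values of the line in all 8 KD libraries. In HN6, FAT1 was at 56.8 and 66.7 CPM in the HN6 NC libraries, 7.61 and 13.5 with siFAT1-1 and 13.2 and 21.4 with siFAT1-2. In HN30, FAT1 was at 13.6 and 14.7 CPM in the NC libraries, 4.86 and 6.26 with siFAT1-1 and 10.8 and 7.74 with siFAT1-2, so HN30 began from a lower FAT1 level. The log2 fold change against NC was -2.55 ± 0.37 (SE) with siFAT1-1 and -1.84 ± 0.36 with siFAT1-2 in HN6, and -1.35 ± 0.36 and -0.61 ± 0.35 in HN30, where the last did not pass (adjusted p = 0.422). Total counts ranged from 26430049 to 47639010 per library and member counts from 44 (POLE2) to 15368 (PCNA). Levels are counts scaled to library size (CPM), with TMM factors of 0.897 to 1.06.

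Some facts of the libraries touch the results below. Epithelial CDH1 (314 to 1010 CPM), EPCAM (190 to 497 CPM) and KRT5 (90.6 to 1990 CPM) were present in all 12 libraries, whereas the basal keratin KRT14 reached only 2.42 CPM. Leukocyte PTPRC stayed at or under 0.0252 CPM, and the summed CPM of 7 fibroblast markers was 12.96 to 164, nearly all COL1A1, with COL3A1 and DCN below 1 CPM. The leukocyte list summed to 24.3 to 124 CPM through CD68 and CD14, and 4 endothelial markers to at most 7.87 CPM. Some markers moved with the members: COL1A1 was higher in KD over both lines (log2 fold change 0.92 ± 0.27) and in HN30 siFAT1-1 (1.43 ± 0.42). Epithelial EPCAM was also higher in KD over both lines (0.64 ± 0.20). In HN30 siFAT1-1 PDGFRB (1.29 ± 0.47), VWF (1.46 ± 0.60, at most 1.53 CPM in any library) and CDH5 (2.96 ± 1.31, at most 6.53 CPM) were also higher. Of 8 squamous epithelial markers there, TP63 was lower (-1.05 ± 0.32), whereas CDH1 (0.85 ± 0.28) and SFN (0.76 ± 0.29) were higher. The median of the 8 was 0.51. Between the siRNAs over both lines, KRT5, KRT14, KRT6A, KRT16, CDH1 and SFN were higher with siFAT1-1 than with siFAT1-2, and EPCAM was lower. Of all genes 17.8% were higher and 16.1% lower in that comparison. Their part in the results was not tested. Repeats of 1 condition differed by more than counting noise in all 6 conditions, by the least in HN30 siFAT1-1 and by the most in HN6 NC. In HN6, NC replicate 2 and siFAT1-2 replicate 1 stood apart in the members, as shown with the values below. RNA of a pool of cells cannot tell fewer cells in S phase from less RNA of these genes per cell. P-values refer only to transfected cultures of these lines. In comparisons of single conditions they measure the spread between repeats. Where siRNAs or lines were pooled, the spread also holds differences between the siRNAs or in the response of the lines. "Lower" and "fell" mean an unadjusted P under 0.05 in edgeR's quasi-likelihood test, and a downregulated DEG has in addition a log2 fold change under -1, the thresholds of the study. Adjusted p-values are Benjamini-Hochberg values over all genes tested. Values after ± are approximate standard errors (SE), worked back from the log2 fold change and the F statistic of the edgeR test.

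Over both lines, 16 of the 42 members (38.1%) were lower in KD than in NC and 0 were higher, where 7.75% of the 13887 genes tested were lower. The 16 were CDT1, CDC45, GINS2, GINS3, POLA2, POLD1, POLD3, POLE, POLE3, RFC2, RPA1, RPA2, FEN1, LIG1, TIMELESS and TCF19. CDC45, FEN1, LIG1 and TCF19 were downregulated DEGs, against 1.04% of all genes. The median log2 fold change of the members was -0.60, beside 0.02 for all genes, and 38 of 42 were below 0. No member passed the adjusted threshold in edgeR, where the lowest adjusted p was 0.0728 for POLE3, and 3 members passed it in DESeq2. With no term for the cell line 6 members were lower, and without HN30 NC replicate 1 there were 8. Without the 2 HN6 libraries that stood apart 9 were lower, and without HN30 siFAT1-2 replicate 2 there were 25. CDC45, GINS3, POLE3, RPA2, FEN1, LIG1 and TCF19 passed whichever single library was left out. CDT1 and RFC2 did not pass without HN30 NC replicate 1, POLD1 and TIMELESS without that library or HN6 NC replicate 2, and RPA1 without HN6 NC replicate 2 or HN30 NC replicate 2. POLA2 did not pass without any 1 of 5 libraries, and POLD3 and POLE without any 1 of 7. GINS2 did not pass without HN6 NC replicate 2, HN30 NC replicate 1, either HN30 siFAT1-1 library or HN30 siFAT1-2 replicate 1.

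The members fell most in HN30 with siFAT1-1. There 35 of 42 were lower (83.3%), against 9.75% of all genes, and 33 were downregulated DEGs, against 4.68%. The median log2 fold change was -1.50, and 6 members, POLA2, POLE2, RPA2, FEN1, TIMELESS and TCF19, also passed the adjusted threshold, against 0.915% of all genes. Both siFAT1-1 libraries lay below both NC libraries for 39 of 42 members, where 30.7% of all genes did so. ORC2, ORC3, ORC4, DBF4, POLD2, RFC1 and RPA3 were the 7 that did not pass. Without HN30 siFAT1-1 replicate 1, 19 were lower. Past the adjusted threshold there were 3 members in limma-voom, 26 in DESeq2, 10 with the replicate as a block, with GC correction or with no filter, and 0 without any 1 of the 4 libraries.

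Fewer members passed in the other 3 conditions. Of the 42 members RPA2 and TCF19 were lower with siFAT1-1 in HN6, against 4.07% of all genes, and the lowest log2 fold change among the others was -0.74 for CDC45. With siFAT1-2 in HN30 GINS3, POLE3 and TCF19 were lower, against 9.94% of all genes, a share no higher than the background, with a median of -0.51. With the replicate as a block this count was 8, of which 2 were shared, since GINS3 did not pass, and without HN30 siFAT1-2 replicate 2 it was 13, and without HN30 NC replicate 1 or HN30 siFAT1-2 replicate 1 it was 0. Both siFAT1-2 libraries of HN30 lay below both NC libraries for 20 of 42 members, where 25.5% of all genes did so. They lay above both for 3 members, where 24.3% of all genes did so. In that comparison 37 of 42 members had a log2 fold change below 0. With siFAT1-2 in HN6 POLD1, POLD2, POLE3, RFC2, RPA2 and LIG1 were lower (11.9% of all genes) and ORC4, RFC1 and TIPIN higher (10.2% of all genes). The count of lower members in HN6 siFAT1-2 rested on single libraries: without HN6 NC replicate 2 or HN6 siFAT1-2 replicate 1 it was 0, and without HN6 siFAT1-2 replicate 2 it was 20. The count of higher members was 7 without HN6 siFAT1-2 replicate 1, 8 without both HN6 libraries that stood apart, 5 without HN6 NC replicate 1 and 1 without HN6 siFAT1-2 replicate 2 or with GC correction. All 4 of these comparisons use the NC libraries of their line.

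**Figure D1:**
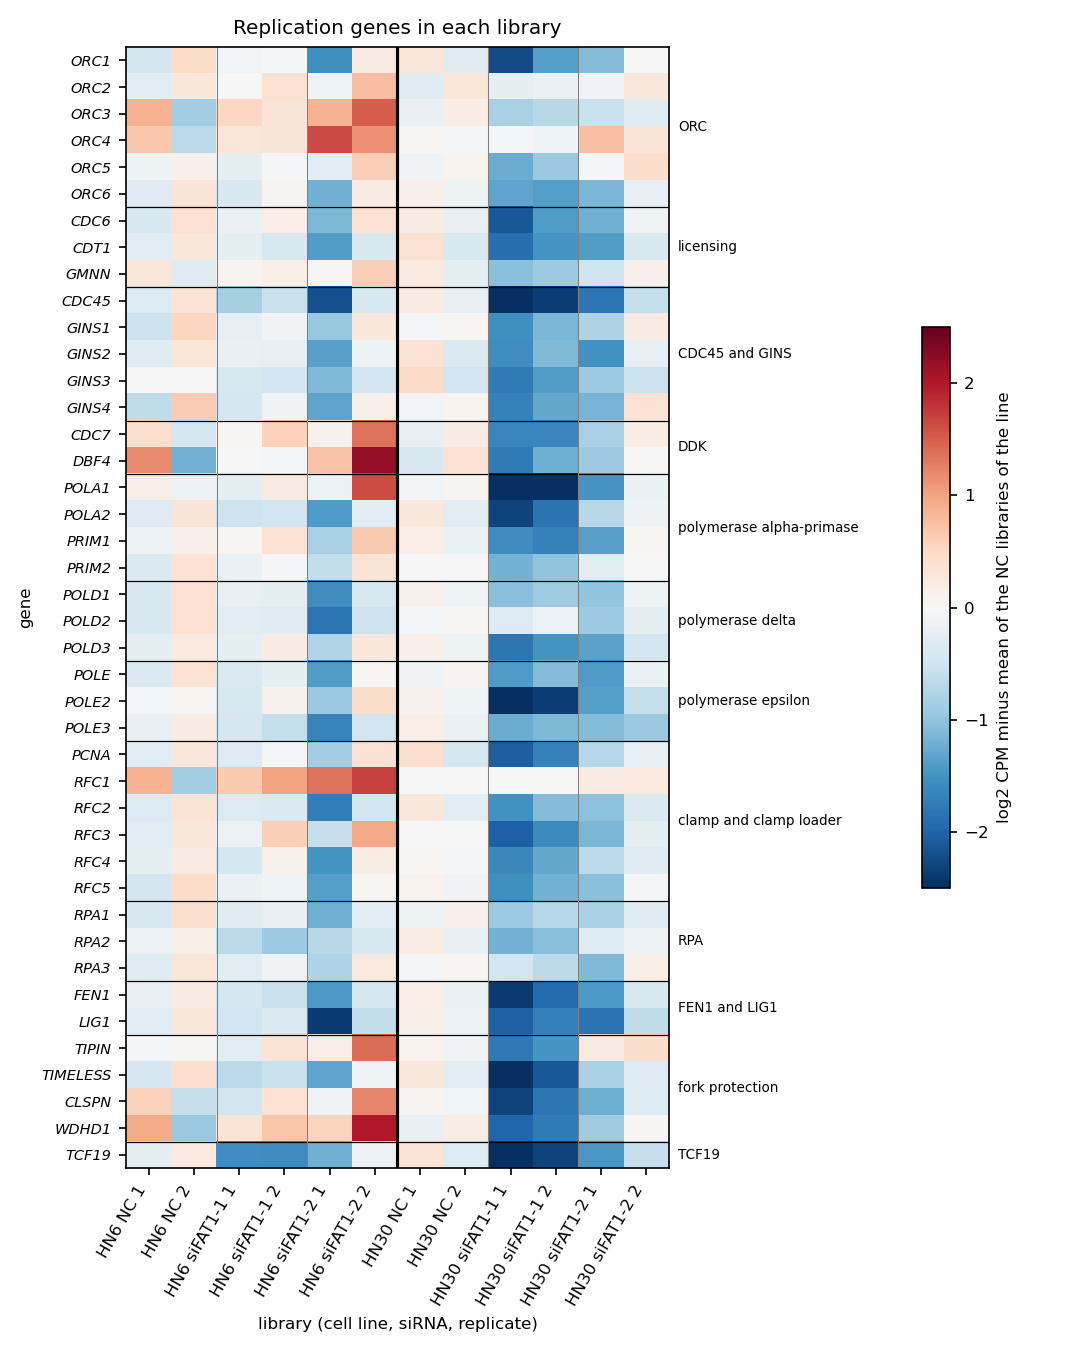
Relative level of the 42 members (rows, grouped by complex) in the 12 libraries (columns, by cell line, siRNA and replicate), as log2 CPM minus the mean of the 2 NC libraries of the line, with blue below and red above NC. The HN30 siFAT1-1 columns are blue for nearly every row, with means over the members of -1.60 and -1.32, while the HN6 siFAT1-2 columns differ from each other (-0.79 and 0.37).

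Over both siRNAs in each line, 19 members were lower in HN30, against 4.99% of all genes, and 1 (RPA2) in HN6, against 2.43%. The medians were -0.94 and -0.25. In HN30 12 were downregulated DEGs, against 1.91%, and the 4 KD libraries lay below both NC libraries for 20 members, against 11.1% of all genes. In HN6 they did so for 7 members, against 9.24%. None passed the adjusted threshold in either line (lowest adjusted p 0.359 in HN30 and 0.814 in HN6). RPA2 did not pass in HN6 without NC replicate 2 or either siFAT1-1 library. The HN30 count was 2 without HN30 NC replicate 1, 9 without HN30 NC replicate 2, 11 and 9 without siFAT1-1 replicate 1 or 2, and 35 without siFAT1-2 replicate 2.

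A smaller count in HN6 does not by itself show a difference between the lines, so the interaction of line and KD was tested. In edgeR 0 members passed at an unadjusted P under 0.05, against 1.08% of all genes, while DESeq2 gave 1, limma-voom 4 and edgeR with the replicate as a block 2. The median difference in log2 fold change, HN30 minus HN6, was -0.63. A difference in response between the lines was therefore not shown for these genes in edgeR. Without HN30 siFAT1-2 replicate 2 the interaction passed for 11 members and without HN6 NC replicate 1 for 5, without siFAT1-2 replicate 1 of HN6 for 2 and without siFAT1-1 replicate 1 of HN6 for 1.

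The siRNAs were also compared over both lines. With siFAT1-1 20 members were lower than NC, against 10.2% of all genes, and 11 were downregulated DEGs, against 2.35%. RPA2 and TCF19 passed the adjusted threshold, against 2.09% of all genes, where leaving out 1 library gave 1 to 4 members and no cell line term 0. With siFAT1-2 11 were lower, against 16%, and ORC4 and RFC1 were higher, against 12.9%, with POLE3 lower past the adjusted threshold (7.47% of all genes) and ORC4 higher past it (4.35%). No NC library is in the contrast of the siRNAs with each other, but the NC libraries enter the estimate of its spread. In that contrast 9 members were lower with siFAT1-1 than with siFAT1-2, where 16.1% of all genes were. ORC4, RPA2, TIPIN and TCF19 passed the adjusted threshold there, against 7.39%. These were 0 without either HN30 siFAT1-1 library or with no cell line term, 1 without HN30 siFAT1-2 replicate 1 or HN6 siFAT1-2 replicate 2, 2 with GC correction or without HN6 siFAT1-1 replicate 1 or HN30 siFAT1-2 replicate 2, and 10 without both HN6 libraries that stood apart. With no cell line term the 3 counts of lower members were 8, 3 and 5. The siFAT1-1 count was 8 without HN30 NC replicate 1 or either HN30 siFAT1-1 library, 13 without HN30 NC replicate 2 and 31 without HN6 NC replicate 1. That of siFAT1-2 was 5 without HN6 NC replicate 2 and 4 without HN6 siFAT1-2 replicate 1, HN30 NC replicate 1 or HN30 siFAT1-2 replicate 1, and the direct comparison gave 16 and 5 without HN6 siFAT1-2 replicate 1 or 2.

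Within HN30 alone, a comparison added after the data were seen, 19 members were lower with siFAT1-1 than with siFAT1-2, against 12.8% of all genes, and 0 were higher. The median difference was -0.95, beside -0.01 for all genes. ORC5, POLA2, RPA2, TIPIN and TIMELESS passed the adjusted threshold, against 3.89% of all genes. Past the adjusted threshold there were 3 in limma-voom, 12 in DESeq2 and 0 without any 1 of the 4 libraries. The count of lower members was 6 without HN30 siFAT1-2 replicate 2 and 7 without HN30 siFAT1-1 replicate 1.

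**Figure D2:**
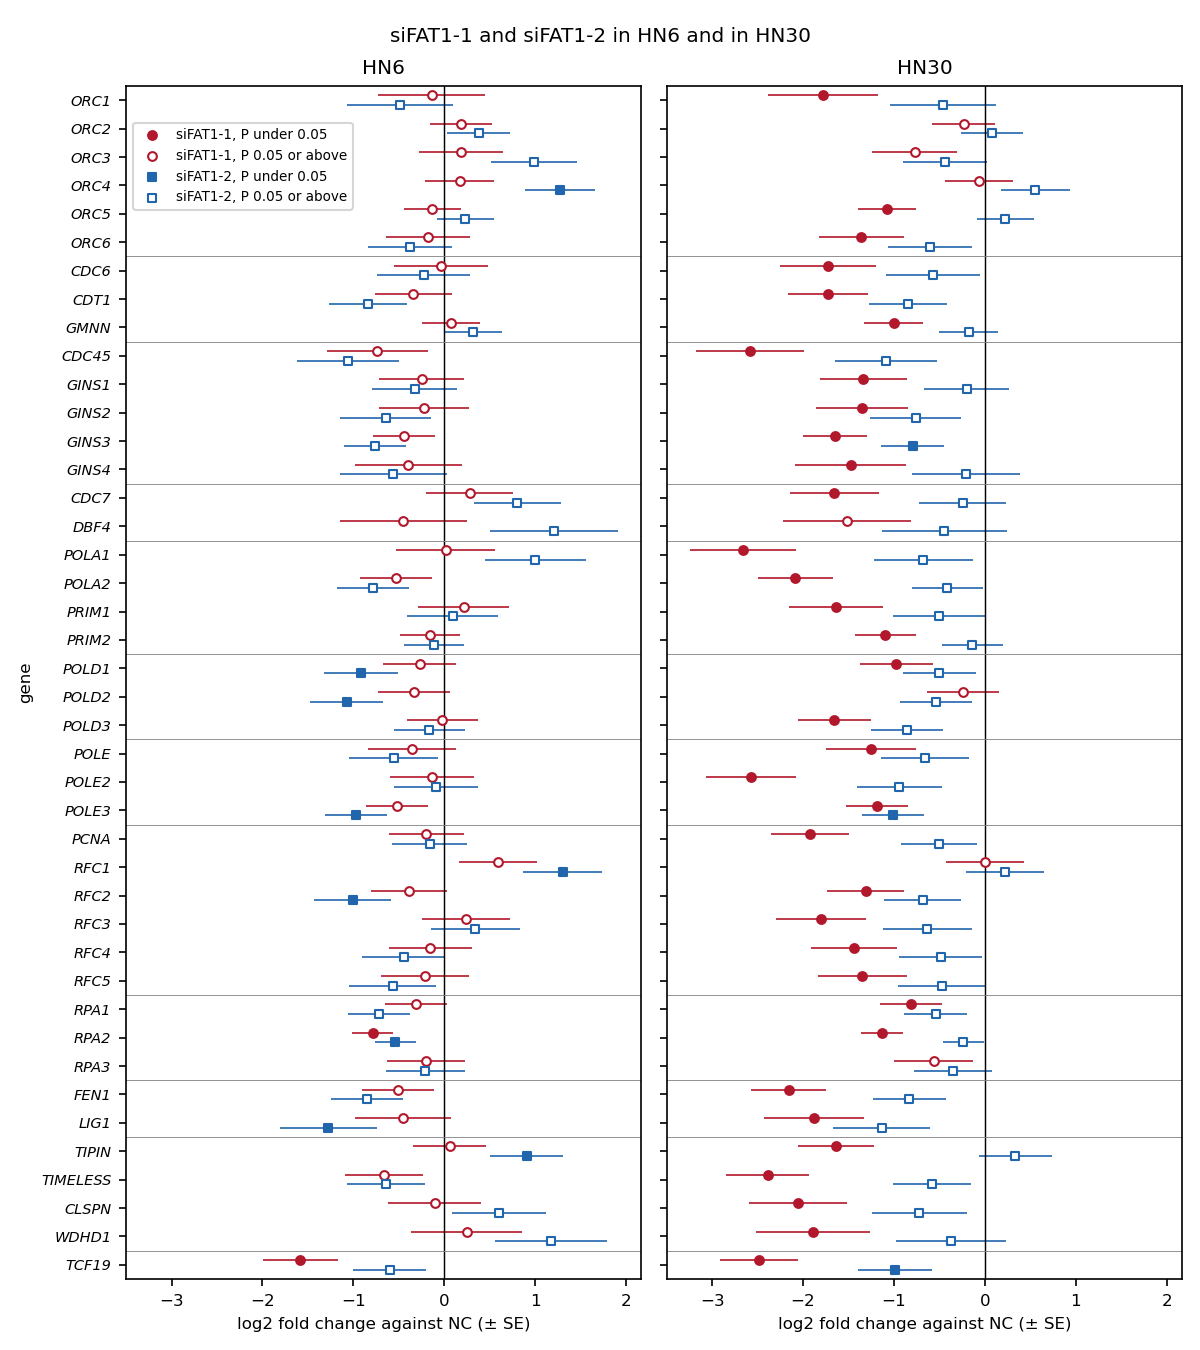
Log2 fold change against NC (horizontal axis, ± SE) of each member (vertical axis, grouped by complex) for siFAT1-1 (circles) and siFAT1-2 (squares) in HN6 (left) and HN30 (right), with filled symbols for an unadjusted P under 0.05. In HN30 35 of 42 circles are filled and 3 squares, and in HN6 2 circles and 9 squares are filled, 6 of these squares below 0.

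The ORC subunits had the median log2 fold change closest to 0 of the 12 groups in KD against NC, -0.07. ORC1, the largest subunit, had a log2 fold change of -0.65 ± 0.40 (SE) in KD against NC over both lines, ORC3 of -0.02 ± 0.35 and ORC5 of -0.11 ± 0.29, and none of the 6 subunits passed. ORC2 was at 17.5 and 25.1 CPM in the HN6 NC libraries, 21.1 and 27.4 with siFAT1-1 and 19.8 and 35.7 with siFAT1-2. In HN30, ORC2 was at 37.3 and 57.4 CPM in the NC libraries, 39.5 and 41.00 with siFAT1-1 and 43.8 and 56.3 with siFAT1-2. In both lines the KD values overlapped those of NC, and its log2 fold change was 0.10 ± 0.21 (adjusted p = 0.853). ORC4 was at 25.7 and 10.2 CPM in the HN6 NC libraries, 20.1 and 20.3 with siFAT1-1 and 50.8 and 35.8 with siFAT1-2. In HN30, ORC4 was at 42.9 and 40.1 CPM in the NC libraries, 40.9 and 38.4 with siFAT1-1 and 70.2 and 51.7 with siFAT1-2. The 4 siFAT1-2 libraries were above both NC libraries of their line, whereas siFAT1-1 gave values within or just below the NC range. ORC4 was higher with siFAT1-2 than NC (log2 fold change 0.92 ± 0.27, adjusted p = 0.046) and over all KD libraries had a log2 fold change of 0.54 ± 0.32 (adjusted p = 0.457). The HN6 NC replicate 2 value was the lowest of the line.

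ORC6, the small subunit needed to load the helicase, was lower in HN30 siFAT1-1. In HN6, ORC6 was at 36.95 and 58.3 CPM in the NC libraries, 35.5 and 48.8 with siFAT1-1 and 20.2 and 53.2 with siFAT1-2. In HN30, ORC6 was at 29.9 and 25.1 CPM in the NC libraries, 10.96 and 10.5 with siFAT1-1 and 12.4 and 23.8 with siFAT1-2. All 4 KD libraries of HN30 were under both NC libraries, while those of HN6 overlapped. The log2 fold change was -0.61 ± 0.30 over both lines (adjusted p = 0.365), -0.65 and past the unadjusted threshold with the replicate as a block, and -1.36 ± 0.47 with siFAT1-1 in HN30 (adjusted p = 0.172). ORC1 and ORC5 also fell there, with log2 fold changes of -1.78 ± 0.60 and -1.07 ± 0.32. For ORC5 the HN30 libraries read 39.5 and 44.02 CPM in NC, 17.7 and 21.98 with siFAT1-1 and 40.97 and 56.6 with siFAT1-2, so siFAT1-1 was below NC and siFAT1-2 within or above it. The log2 difference between the siRNAs was -1.30 ± 0.32 (adjusted p = 0.0368).

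The licensing factors were lower with siFAT1-1 in HN30, all 3 of them. CDC6, the ATPase that brings the helicase to ORC, was at 160.3 and 273 CPM in the HN6 NC libraries, 187 and 236 with siFAT1-1 and 96.2 and 274 with siFAT1-2. In HN30, CDC6 was at 102 and 76.6 CPM in the NC libraries, 20.2 and 33.7 with siFAT1-1 and 38.4 and 81.6 with siFAT1-2. The HN30 siFAT1-1 libraries were the lowest, and HN6 siFAT1-2 replicate 1 was far below its repeat. CDC6 had a log2 fold change of -1.73 ± 0.53 there (adjusted p = 0.133) and -0.60 ± 0.36 over all KD libraries (adjusted p = 0.465). CDT1, the other loading factor, was at 94.3 and 138 CPM in the HN6 NC libraries, 97.8 and 86.1 with siFAT1-1 and 43.5 and 86.3 with siFAT1-2. In HN30, CDT1 was at 98.6 and 58.5 CPM in the NC libraries, 20.4 and 27.2 with siFAT1-1 and 28.97 and 58.6 with siFAT1-2. In HN30 only siFAT1-2 replicate 2 reached into the NC range, and in HN6 only siFAT1-1 replicate 1 did. CDT1 fell with a log2 fold change of -0.90 ± 0.30 over both lines (adjusted p = 0.193). GMNN, the inhibitor of CDT1, had a log2 fold change of -0.18 ± 0.25 over both lines and was lower with siFAT1-1 in HN30.

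CDC45 was among the 4 downregulated DEGs over both lines. In HN6, CDC45 was at 55.2 and 89.9 CPM in the NC libraries, 39.4 and 47.6 with siFAT1-1 and 15.3 and 54.1 with siFAT1-2. In HN30, CDC45 was at 44.8 and 34.1 CPM in the NC libraries, 5.57 and 7.61 with siFAT1-1 and 11.2 and 25.99 with siFAT1-2. All 8 KD libraries were below both NC libraries of their line, as for GINS3, POLE3, RFC2, FEN1 and LIG1, 6 members where 3.15% of all genes did so. The log2 fold change of CDC45 was -1.28 ± 0.40 (adjusted p = 0.167), and -2.58 ± 0.59 with siFAT1-1 in HN30 (adjusted p = 0.0647). GINS3, a subunit of the complex that couples CDC45 to the helicase, was at 37.8 and 38.2 CPM in the HN6 NC libraries, 28.6 and 27.3 with siFAT1-1 and 17.6 and 27.2 with siFAT1-2. In HN30, GINS3 was at 44.5 and 23.2 CPM in the NC libraries, 9.35 and 12.2 with siFAT1-1 and 17.01 and 21.98 with siFAT1-2. The HN6 NC libraries nearly coincided, and the KD values stayed under them in every case. GINS3 fell with a log2 fold change of -0.89 ± 0.26 over both lines (adjusted p = 0.142) and passed with either siRNA in HN30 (-1.65 and -0.80). Among the other subunits GINS2 was lower over both lines (-0.73 ± 0.31, adjusted p = 0.3), while GINS1 (-0.48) and GINS4 (-0.59) did not pass there. All 4 GINS genes fell with siFAT1-1 in HN30.

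Of the kinase pair, CDC7 fell in HN30 with siFAT1-1, and DBF4 differed between the lines in NC. CDC7, the catalytic subunit, was at 16.1 and 9.05 CPM in the HN6 NC libraries, 12.5 and 18.03 with siFAT1-1 and 12.9 and 30.9 with siFAT1-2. In HN30, CDC7 was at 19.7 and 25.9 CPM in the NC libraries, 7.22 and 7.24 with siFAT1-1 and 12.8 and 25.6 with siFAT1-2. In HN30 both siFAT1-1 libraries were below NC, and HN6 siFAT1-2 replicate 2 was the highest of the 12. CDC7 fell with a log2 fold change of -1.66 ± 0.49 in HN30 siFAT1-1 (adjusted p = 0.123) and had a log2 fold change of -0.16 ± 0.42 over all KD libraries (adjusted p = 0.886). DBF4, its activator, was at 17.9 and 3.44 CPM in the HN6 NC libraries, 7.90 and 7.67 with siFAT1-1 and 12.99 and 36.2 with siFAT1-2. In HN30, DBF4 was at 48.6 and 82.5 CPM in the NC libraries, 18.6 and 27.2 with siFAT1-1 and 33.6 and 62.5 with siFAT1-2. The HN6 NC libraries were far apart, and the HN6 KD values lay between or above them. DBF4 had a log2 fold change of -0.21 ± 0.55 over both lines (adjusted p = 0.888) and -1.52 ± 0.70 with siFAT1-1 in HN30 (adjusted p = 0.301), where both values were below NC without passing. It was higher in HN30 NC than in HN6 NC, by a log2 fold change of 2.62 ± 0.73 (adjusted p = 0.0224).

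All 4 genes of polymerase alpha-primase fell with siFAT1-1 in HN30. POLA2, its regulatory subunit, was at 74.8 and 116 CPM in the HN6 NC libraries, 65.00 and 67.1 with siFAT1-1 and 34.9 and 76.1 with siFAT1-2. In HN30, POLA2 was at 70.5 and 48.3 CPM in the NC libraries, 11.7 and 16.3 with siFAT1-1 and 35.9 and 53.4 with siFAT1-2. Both siFAT1-1 libraries were below NC in each line, and siFAT1-2 was split between its repeats. POLA2 fell with a log2 fold change of -0.84 ± 0.35 over both lines (adjusted p = 0.297) and of -2.08 ± 0.41 in HN30 siFAT1-1 (adjusted p = 0.0428). PRIM2, the large primase subunit, was at 34.6 and 57.1 CPM in the HN6 NC libraries, 39.5 and 42.8 with siFAT1-1 and 29.1 and 55.6 with siFAT1-2. In HN30, PRIM2 was at 27.2 and 26.6 CPM in the NC libraries, 11.8 and 13.3 with siFAT1-1 and 22.1 and 26.8 with siFAT1-2. Its siFAT1-1 values in HN30 were under NC while the HN6 values overlapped. PRIM2 had a log2 fold change of -0.34 ± 0.25 over both lines (adjusted p = 0.563) and fell with a log2 fold change of -1.09 ± 0.34 in HN30 siFAT1-1. POLA1, the catalytic subunit, gave the lowest fold change of any member there, -2.66 ± 0.58 (adjusted p = 0.0563), with 5.46 and 5.30 CPM beside 32.4 and 35.7 in NC and 12.2 and 30.4 with siFAT1-2. Over both lines POLA1 had a log2 fold change of -0.49 ± 0.56, and its HN6 siFAT1-2 libraries read 9.19 and 31.8 CPM, the second above NC. PRIM1, the catalytic primase, had a log2 fold change of -0.44 ± 0.37 over both lines and fell with a log2 fold change of -1.64 ± 0.52 in HN30 siFAT1-1.

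**Figure D3:**
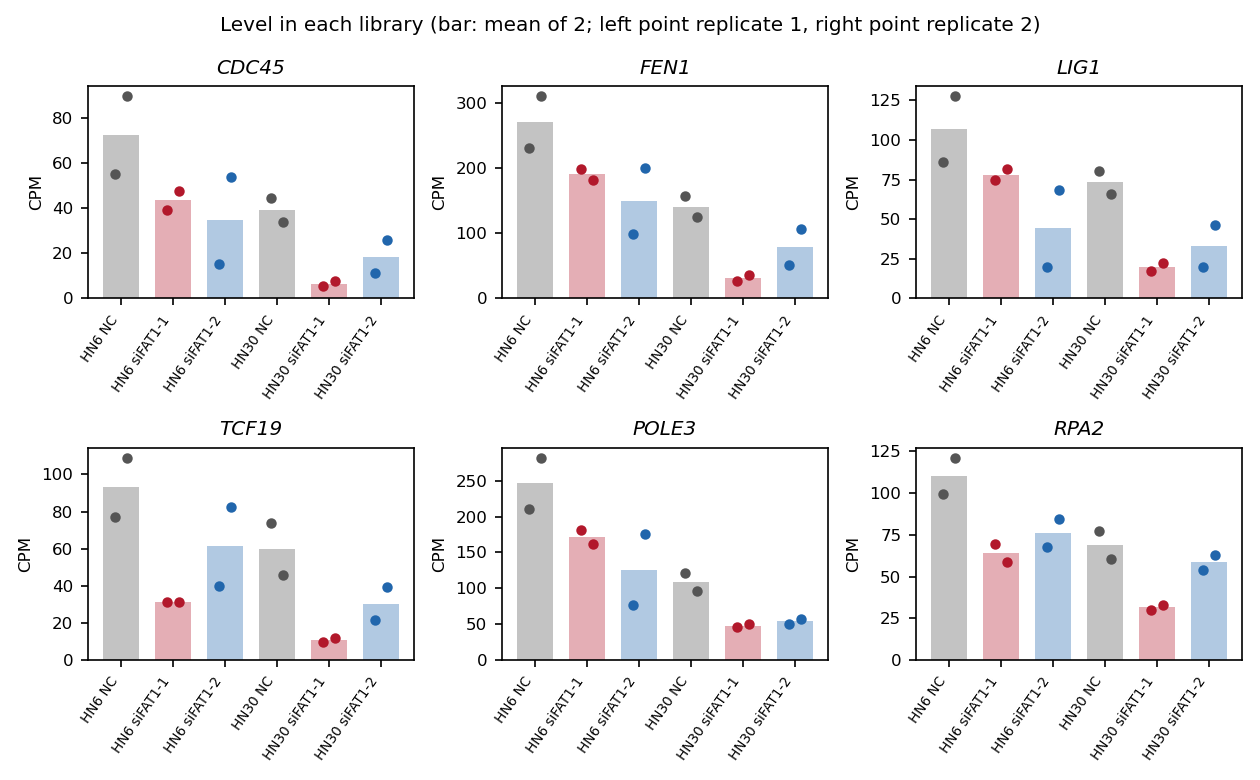
CPM (vertical axes, from 0) of CDC45, FEN1, LIG1, TCF19, POLE3 and RPA2 in each condition, with bars for the mean of 2 libraries and points for replicate 1 (left) and replicate 2 (right). FEN1 falls from 157 and 125 CPM in HN30 NC to 26.5 and 36.6 with siFAT1-1, and RPA2 lies below both NC libraries with either siRNA in HN6.

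Polymerase delta held both a member that fell in HN30 and one that did not. POLD1, the catalytic subunit, was at 146 and 248 CPM in the HN6 NC libraries, 164 and 162 with siFAT1-1 and 64.8 and 144 with siFAT1-2. In HN30, POLD1 was at 120.1 and 102 CPM in the NC libraries, 53.9 and 59.5 with siFAT1-1 and 56.02 and 101 with siFAT1-2. All 4 HN30 KD values were below NC, though siFAT1-2 replicate 2 only just. POLD1 fell with a log2 fold change of -0.64 ± 0.26 over both lines (adjusted p = 0.28). POLD3, an accessory subunit, was at 25.6 and 35.6 CPM in the HN6 NC libraries, 25.7 and 34.7 with siFAT1-1 and 17.9 and 36.8 with siFAT1-2. In HN30, POLD3 was at 57.5 and 48.1 CPM in the NC libraries, 14.96 and 18.6 with siFAT1-1 and 20.8 and 37.6 with siFAT1-2. The HN30 KD values were all under NC and the HN6 values were below, within or above it. POLD3 fell with a log2 fold change of -0.68 ± 0.30 over both lines (adjusted p = 0.326) and had an interaction of -1.11 ± 0.55 that did not pass (adjusted p = 1). POLD2, another accessory subunit, had a log2 fold change of -0.52 ± 0.26 over both lines and fell with siFAT1-2 in HN6 (-1.07 ± 0.40, adjusted p = 0.165), but had a log2 fold change of -0.24 with siFAT1-1 in HN30. The further subunit POLD4, which is no member, was higher over both lines (0.72 ± 0.25, adjusted p = 0.213). It was also higher with siFAT1-1 in HN30 (1.13 ± 0.40, adjusted p = 0.183).

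POLE, POLE2 and POLE3, the members from polymerase epsilon, were lower over both siRNAs in HN30. The further subunit POLE4, which is no member, had a log2 fold change of -0.21 ± 0.26 there (adjusted p = 0.845). POLE, the catalytic subunit, was at 122 and 202 CPM in the HN6 NC libraries, 122 and 132 with siFAT1-1 and 59.9 and 161 with siFAT1-2. In HN30, POLE was at 134 and 152 CPM in the NC libraries, 53.2 and 67.02 with siFAT1-1 and 53.6 and 128 with siFAT1-2. In HN30 the KD values were below NC, and in HN6 siFAT1-2 replicate 1 was the lowest. POLE fell with a log2 fold change of -0.69 ± 0.29 over both lines (adjusted p = 0.296). POLE3, a histone-fold subunit, was at 210.0 and 282 CPM in the HN6 NC libraries, 181 and 162 with siFAT1-1 and 76.2 and 175 with siFAT1-2. In HN30, POLE3 was at 121 and 96.4 CPM in the NC libraries, 45.9 and 49.7 with siFAT1-1 and 50.7 and 56.9 with siFAT1-2. All KD values were below NC in either line, with HN6 siFAT1-2 replicate 1 far below its repeat. POLE3 fell with a log2 fold change of -0.92 ± 0.21 over both lines (adjusted p = 0.0728), and was lower with siFAT1-2 in both HN6 (-0.97) and HN30 (-1.01). POLE2, the second subunit, was the member of lowest counts and fell from 12.1 and 10.4 CPM in HN30 NC to 1.65 and 2.13 with siFAT1-1, a log2 fold change of -2.57 ± 0.49 (adjusted p = 0.0404). It had a log2 fold change of -0.88 ± 0.42 over both lines (adjusted p = 0.362).

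Among the clamp and its loader, RFC1 stood apart from the small RFC subunits. RFC1, the large subunit, was at 50.8 and 15.3 CPM in the HN6 NC libraries, 43.7 and 55.96 with siFAT1-1 and 71.2 and 91.5 with siFAT1-2. In HN30, RFC1 was at 74.2 and 74.9 CPM in the NC libraries, 75.4 and 74.3 with siFAT1-1 and 85.5 and 88.7 with siFAT1-2. In HN30 the siFAT1-1 values were close to those of NC, and in HN6 the NC replicate 2 value was the lowest of the line. RFC1 was higher with siFAT1-2 over both lines (log2 fold change 0.76 ± 0.32, adjusted p = 0.142) and had a log2 fold change of 0.53 ± 0.30 over all KD libraries (adjusted p = 0.445). RFC2 was at 65.6 and 105 CPM in the HN6 NC libraries, 65.5 and 65.00 with siFAT1-1 and 25.2 and 59.9 with siFAT1-2. In HN30, RFC2 was at 122 and 81.9 CPM in the NC libraries, 34.9 and 47.1 with siFAT1-1 and 48.7 and 78.04 with siFAT1-2. For this small subunit all KD values were below NC in both lines. RFC2 fell with a log2 fold change of -0.82 ± 0.27 (adjusted p = 0.199).

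RFC3 differed between the lines in NC. In HN6, RFC3 was at 22.1 and 32.8 CPM in the NC libraries, 24.4 and 40.7 with siFAT1-1 and 18.02 and 51.8 with siFAT1-2. In HN30, RFC3 was at 120.5 and 119 CPM in the NC libraries, 29.2 and 39.6 with siFAT1-1 and 54.1 and 101 with siFAT1-2. The HN30 NC values were above every HN6 value, and in HN30 all KD values were below NC. RFC3 fell with a log2 fold change of -1.80 ± 0.50 in HN30 siFAT1-1 (adjusted p = 0.105), had a log2 fold change of -0.46 ± 0.39 over both lines and was higher in HN30 NC than in HN6 NC, by a log2 fold change of 2.12 ± 0.50 (adjusted p = 0.0113). RFC5 was at 43.9 and 83.8 CPM in the HN6 NC libraries, 54.3 and 55.9 with siFAT1-1 and 23.4 and 62.8 with siFAT1-2. In HN30, RFC5 was at 43.1 and 38.5 CPM in the NC libraries, 14.1 and 17.97 with siFAT1-1 and 19.6 and 39.1 with siFAT1-2. Its siFAT1-1 values in HN30 were under NC, whereas siFAT1-2 replicate 2 of HN30 was within the NC range. RFC5 had a log2 fold change of -0.62 ± 0.31 over both lines (adjusted p = 0.383), RFC4 had a log2 fold change of -0.60 ± 0.31 (adjusted p = 0.396) and the clamp PCNA -0.63 ± 0.35 (adjusted p = 0.427). In HN30 siFAT1-1 all 3 fell, PCNA from 435 and 239.9 CPM to 77.5 and 99.8 (log2 fold change -1.93 ± 0.43, adjusted p = 0.0598).

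RPA2 was the 1 member that fell in HN6 over both siRNAs, a share no higher than the 2.43% of all genes. The middle subunit of RPA, it was at 99.6 and 121 CPM in the HN6 NC libraries, 69.4 and 58.6 with siFAT1-1 and 67.6 and 84.6 with siFAT1-2. In HN30, RPA2 was at 77.6 and 60.2 CPM in the NC libraries, 29.9 and 33.02 with siFAT1-1 and 54.03 and 62.96 with siFAT1-2. All KD values of HN6 and both siFAT1-1 values of HN30 were below NC, and in HN30 siFAT1-2 replicate 2 was inside the NC range. RPA2 fell with a log2 fold change of -0.64 ± 0.20 over both lines (adjusted p = 0.18), of -0.63 ± 0.24 in HN6 (adjusted p = 0.814) and of -0.95 ± 0.18 with siFAT1-1 (adjusted p = 0.0142). RPA1, the large DNA-binding subunit, was at 240.3 and 416 CPM in the HN6 NC libraries, 255 and 275 with siFAT1-1 and 137 and 262 with siFAT1-2. In HN30, RPA1 was at 139.9 and 165 CPM in the NC libraries, 81.4 and 92.6 with siFAT1-1 and 86.3 and 124 with siFAT1-2. The HN30 KD values were all under NC and the HN6 values were mixed. RPA1 fell with a log2 fold change of -0.59 ± 0.21 (adjusted p = 0.224), and RPA3, the small subunit, had a log2 fold change of -0.33 ± 0.24 (adjusted p = 0.56).

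Both Okazaki fragment enzymes were downregulated DEGs over both lines. LIG1, the replicative ligase, was at 86.1 and 128 CPM in the HN6 NC libraries, 74.8 and 81.4 with siFAT1-1 and 19.96 and 68.4 with siFAT1-2. In HN30, LIG1 was at 80.7 and 65.6 CPM in the NC libraries, 17.6 and 22.2 with siFAT1-1 and 20.1 and 46.5 with siFAT1-2. Every KD value was below NC in its line, and HN6 siFAT1-2 replicate 1 was the lowest of HN6. LIG1 fell with a log2 fold change of -1.14 ± 0.35 (adjusted p = 0.158). FEN1, the flap nuclease, was at 231 and 310.1 CPM in the HN6 NC libraries, 199 and 181 with siFAT1-1 and 98.8 and 201 with siFAT1-2. In HN30, FEN1 was at 157 and 125 CPM in the NC libraries, 26.5 and 36.6 with siFAT1-1 and 51.8 and 107 with siFAT1-2. The KD values were again all below NC, by most in HN30 siFAT1-1. FEN1 fell with a log2 fold change of -1.02 ± 0.32 (adjusted p = 0.175) and of -2.16 ± 0.41 in HN30 siFAT1-1 (adjusted p = 0.0383).

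Among the complexes, the fork protection genes had the lowest median log2 difference of siFAT1-1 minus siFAT1-2 in HN30, -1.67. TIMELESS was at 98.2 and 177 CPM in the HN6 NC libraries, 84.1 and 90.2 with siFAT1-1 and 52.6 and 125 with siFAT1-2. In HN30, TIMELESS was at 94.5 and 64.3 CPM in the NC libraries, 12.3 and 18.00 with siFAT1-1 and 44.1 and 62.4 with siFAT1-2. The siFAT1-1 values were the lowest in HN30 and below NC in both lines. TIMELESS fell with a log2 fold change of -0.94 ± 0.38 over both lines (adjusted p = 0.281), of -2.39 ± 0.45 in HN30 siFAT1-1 (adjusted p = 0.0376), and there was lower than with siFAT1-2 (log2 difference -1.81 ± 0.44, adjusted p = 0.0364). TIPIN, its partner, was at 8.85 and 9.33 CPM in the HN6 NC libraries, 7.49 and 11.5 with siFAT1-1 and 10.2 and 23.97 with siFAT1-2. In HN30, TIPIN was at 9.82 and 8.57 CPM in the NC libraries, 2.62 and 3.27 with siFAT1-1 and 10.7 and 12.5 with siFAT1-2. Both siFAT1-2 repeats were above NC in each line, and both siFAT1-1 repeats of HN30 were below it. TIPIN was lower with siFAT1-1 than with siFAT1-2 over both lines (log2 difference -1.33 ± 0.37, adjusted p = 0.0287) and in HN30 (-1.98 ± 0.42, adjusted p = 0.0242). Over all KD libraries it had a log2 fold change of 0.08 ± 0.44, a value near 0 whose sign depended on the library left out.

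CLSPN, the claspin gene of the checkpoint at forks, was at 55.6 and 25.2 CPM in the HN6 NC libraries, 27.1 and 47.96 with siFAT1-1 and 35.1 and 87.2 with siFAT1-2. In HN30, CLSPN was at 51.9 and 47.1 CPM in the NC libraries, 9.95 and 13.9 with siFAT1-1 and 21.2 and 38.98 with siFAT1-2. In HN30 all KD values were below NC, with siFAT1-1 the lowest, while in HN6 siFAT1-2 replicate 2 was the highest. CLSPN fell with a log2 fold change of -2.05 ± 0.54 in HN30 siFAT1-1 (adjusted p = 0.0902) and had a log2 fold change of -0.54 ± 0.44 over both lines (adjusted p = 0.594). WDHD1, which ties polymerase alpha to the helicase, had a log2 fold change of -0.17 ± 0.52 over both lines and fell with a log2 fold change of -1.89 ± 0.63 in HN30 siFAT1-1 (adjusted p = 0.157).

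TCF19 was the member with the lowest log2 fold change over both lines. In HN6, TCF19 was at 77.05 and 109 CPM in the NC libraries, 31.1 and 30.99 with siFAT1-1 and 40.1 and 82.7 with siFAT1-2. In HN30, TCF19 was at 73.8 and 46.1 CPM in the NC libraries, 9.61 and 11.7 with siFAT1-1 and 21.3 and 39.1 with siFAT1-2. The siFAT1-1 repeats nearly coincided in HN6 and were far below NC in both lines, and HN6 siFAT1-2 replicate 2 alone was within NC. TCF19 fell with a log2 fold change of -1.29 ± 0.37 over both lines (adjusted p = 0.142) and of -2.03 ± 0.30 with siFAT1-1 (adjusted p = 0.00498). It was lower with siFAT1-1 than with siFAT1-2 (log2 difference -1.22 ± 0.30, adjusted p = 0.0171), and with siFAT1-1 was lower than NC in HN6 (-1.58 ± 0.41, adjusted p = 0.312) as well as in HN30 (-2.49 ± 0.43, adjusted p = 0.0306).

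Between the lines at baseline, the shares of members that differed were below those of all genes. In HN30 NC against HN6 NC 7 members were lower and 8 higher, against 22.4% and 21.7% of all genes, and POLE3, RPA1 and RPA2 were lower and ORC2, ORC4, ORC5, DBF4, POLA1 and RFC3 higher past the adjusted threshold (16.9% and 15.7% of all genes). The first count was 4 with the replicate as a block, 11 without HN6 NC replicate 1, 1 without HN6 NC replicate 2 and 2 without either HN30 NC library. The count of higher members was 4 with GC correction or without HN30 NC replicate 2. The 9 past the adjusted threshold became 2 without HN6 NC replicate 2, 3 and 1 without HN30 NC replicate 1 or 2, 4 with the block and 6 with GC correction. Per kilobase of the canonical transcript, PCNA had the highest level in both lines, a mean of 206 CPM per kb in HN6 NC and 264 in HN30 NC, and POLD2 followed with 176 and 212. WDHD1 was the lowest of the members in HN6 NC (1.58 CPM per kb) and GINS4 in HN30 NC (3.55 CPM per kb).

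Over the members, GC content moved with results of both lines, and least with those of HN30 siFAT1-1 among the comparisons with NC. The HN6 NC libraries differed by GC content, with Pearson's r of 0.51 between the GC content of the canonical transcript and the log2 difference of replicate 2 minus replicate 1 over the 42 members, and 0.43 over 13225 genes. The members far lower in replicate 2, among them DBF4, WDHD1, RFC1, ORC3 and ORC4, had GC contents of 37.7, 38.2, 41.6, 39.2 and 37.4%. These r values are descriptions over genes of the same libraries, and genes are not replicates. In KD against NC of HN6, r was -0.75 over the members and -0.45 over 12793 genes, and the 21 members at or above a GC content of 44.5% had a median log2 fold change of -0.57 and the other 21 of 0.32. With siFAT1-2 over both lines r was -0.72 over the members. In HN30 r was -0.45 over the members between the NC repeats, -0.33 in KD against NC and -0.47 with siFAT1-2. Over all genes with a known GC content these values were -0.19, -0.0067 and -0.14. In HN30 siFAT1-1, r was -0.11 over the members and 0.080 over 13225 genes, and the medians were -1.48 and -1.52. With a correction of each library for GC content, added after the data were seen, 36 members were lower in HN30 siFAT1-1, 18 over both lines and 2 in HN6 siFAT1-2 in place of 6. Of the 16 members lower over both lines without it 12 were shared, and POLA2, POLD1, POLE and TIMELESS did not pass. Of the 11 lower with siFAT1-2 over both lines 5 were shared, and CDT1, CDC45, POLD1, POLD2, RFC2 and FEN1 did not pass. The part of GC content in the other differences between libraries was not tested.

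**Figure D4:**
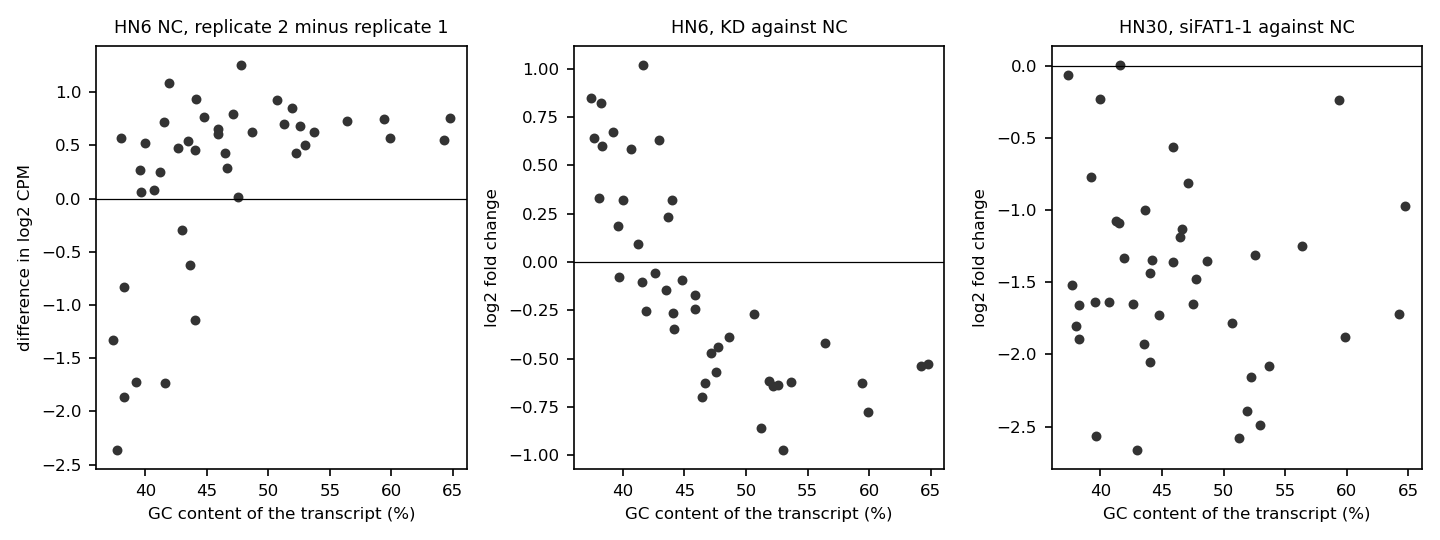
GC content of the canonical transcript (horizontal axes, %) of the 42 members against the log2 CPM difference between the HN6 NC replicates (left), the log2 fold change of KD against NC in HN6 (middle) and that of siFAT1-1 against NC in HN30 (right). The points rise from left to right in the first panel (r = 0.51), fall in the second (r = -0.75) and show little slope in the third (r = -0.11).

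Other replication genes, a list of 46 that share no gene with the 42, were also measured. Over both lines 16 of 46 were lower and 4 higher (median log2 fold change -0.53), against 7.75% and 6.77% of all genes. In HN30 siFAT1-1 24 were lower and 1 higher (median -1.24), against 9.75% and 7.68% of all genes. CCNE1, the cyclin that starts S phase, fell with a log2 fold change of -2.05 ± 0.34 over both lines (adjusted p = 0.0197), and the helicase subunits MCM5 and MCM7 fell with a log2 fold change of -1.29 ± 0.32 and -0.94 ± 0.25. In HN30 siFAT1-1 E2F1, an activating E2F factor, fell with a log2 fold change of -4.25 ± 0.62 (adjusted p = 0.0213) and DSCC1, of an alternative clamp loader, of -2.55 ± 0.44 (adjusted p = 0.0308). TOP1, the topoisomerase ahead of forks, was higher over both lines (0.61 ± 0.16, adjusted p = 0.121), as were POLD4, RAD17 and ETAA1. The 1 higher in HN30 siFAT1-1 was POLD4.

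Cell cycle markers moved beside the members. Of 8 markers of the boundary of G1 and S phase, 8 were lower in HN30 siFAT1-1 (median -2.06) and 5 over both lines (median -0.94). Of 8 markers of G2 and M phase, 1 (CCNA2) was lower in HN30 siFAT1-1 with a median of -1.32. Over both siRNAs in HN30 MKI67, CCNB1, CDK1 and PLK1 were lower (4 of 8, median -1.13). Of all genes 9.75% were lower in HN30 siFAT1-1, 7.75% over both lines and 4.99% over both siRNAs in HN30. The G1/S markers CCNE1, CCNE2, E2F1, MCM2 and MCM5 and the G2/M marker TOP2A are also among the other replication genes above. Of the arrest markers CDKN1A, GADD45A and MDM2, 1 was lower over both lines, GADD45A (-0.59 ± 0.18, adjusted p = 0.154). CDKN1A, an inhibitor of cyclin-dependent kinases, was higher in HN30 over both siRNAs (log2 fold change 1.99 ± 0.81, adjusted p = 0.513) and passed the unadjusted threshold in the interaction, where 0 members did. By siRNA in HN30, CDKN1A was higher with siFAT1-2 and did not pass with siFAT1-1 (0.94 ± 0.66, adjusted p = 0.511), where the members fell most. It was lower with siFAT1-1 than with siFAT1-2 in HN30. The phase composition of the cultures was not measured in these files. At a later time after FAT1 silencing, the paper reports a larger G0/G1 share and a smaller S phase share by flow cytometry. The part of phase composition in the members' fall was not tested. Exons of 22 members overlap another annotated gene, such as EIF4A2 at RFC4 and POU5F1 at TCF19 on the opposite strand, and FADS2 at FEN1 on the same strand. Whether the counting used strand is not given, and strand cannot separate genes on the same strand. The counts of these members may therefore include reads of the other gene.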

How the data were processed

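Poly(A) mRNA of HN6 and HN30 cells was sequenced as 150-base paired reads. According to the labels and the study's methods, the authors removed duplicate and low-quality reads, mapped to hg38 with HISAT2 and counted with featureCounts (versions, annotation and strand setting are not given in the sources used here). The deposited table holds raw counts per gene for the 12 libraries, with no normalization. Groups and repeats came from the labels, which mark each repeat as a separate time.

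Members and lists were chosen with earlier results of these data known. Counts were tested with edgeR 4.0.16 in R 4.3.3 (TMM scaling, filterByExpr with a minimum count of 10, quasi-likelihood test), fitted on all genes and adjusted over all of them by Benjamini-Hochberg. The fit over both lines had a term for the cell line and kept 13887 genes, those within a line 13626 and 13602, and comparisons of single conditions used 1 term for each of the 6 conditions. The authors' own test was limma-voom, whose thresholds on P and log2 fold change were kept. Alternatives were DESeq2 1.42.0 size factors and Wald test, limma-voom (limma 3.58.1), no filter, no cell line term, the replicate as a block and leaving out each library. Added after seeing the data were a lowess correction for GC content, leaving out the pair of HN6 libraries that stood apart, and the comparison of the siRNAs within HN30. Repeats with the same number correlated in their deviations from the group means by 0.08, 0.22 and 0.24 in HN6 and by -0.03, 0.40 and -0.02 in HN30. The labels' shared time is the source of the pairing. The script was tested on simulated data.

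All members are named. Values in every library are given for the 2 members of each complex with the smallest P over both lines (1 in complexes of under 3 members), the 3 with the largest rise, and the 2 with the smallest P in the interaction, between the siRNAs and between the NC groups. Those of ORC5, POLA1, POLE2, PCNA and FEN1 were added after their values were seen. Total counts of 26430049 to 47639010 per library bear on the precision of each value. The spread between repeats, which exceeded counting noise in every condition, bears on it as well. GC content and length came from GENCODE release 44 and promoters from RefSeq GRCh38.p14, a build of hg38.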

Additional observations from a re-analysis of the deposited data

Results flagged for a closer look

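HN6 siFAT1-2 replicate 1 lay far below the other 3 KD libraries of HN6 for 12 members. Its log2 CPM relative to the mean of HN6 NC was -2.39 for LIG1, -1.82 for POLD2, -1.72 for RFC2, -1.67 for POLE3, -1.56 for POLD1 and -1.54 for ORC1. It was -1.44 for FEN1, -1.39 for CDT1, -1.37 for RFC5, -1.36 for GINS2, -1.21 for RPA1 and -1.11 for GINS3. In HN30, siFAT1-2 replicate 2 lay above the other KD libraries for POLD1, at -0.13. A library this far from the other 3 of its group was found in 13 of 86 groups of 4 libraries. The rate of about 1 in 20 by chance holds for 4 like libraries, whereas each group held both siRNAs, so it cannot be applied here. The members of 1 library are also not independent.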

How the results depend on the processing

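Counts of lower members depended on few libraries. Leaving out 1 library at a time gave 8 to 25 over both lines, 0 to 2 in HN6, 2 to 35 in HN30, 0 to 11 for the interaction, 8 to 31 with siFAT1-1, 4 to 15 with siFAT1-2, 5 to 16 between the siRNAs, 1 to 2 and 0 to 20 for siFAT1-1 and siFAT1-2 in HN6, 19 to 29 and 0 to 13 for them in HN30, 6 to 26 between them in HN30 and 1 to 11 between the NC groups. A condition left with 1 library was assumed to vary like the others. With no cell line term 6 were lower over both lines, 8 with siFAT1-1, 3 with siFAT1-2 and 5 between the siRNAs. DESeq2 gave 1 for the interaction and 5 for HN30 siFAT1-2, limma-voom 2 in HN6, 4 for the interaction, 12 for HN6 siFAT1-2 and 6 for HN30 siFAT1-2, and no filter 2 in HN6 and 6 for HN30 siFAT1-2. The replicate block gave 2 in HN6, 2 for the interaction, 8 for HN30 siFAT1-2 and 4 between the NC groups. It moved no other count by over 1.5 times, and among the members given in every library it changed the call of ORC6 alone in KD against NC. In other comparisons the lower calls lost with it were GINS3 in HN30 siFAT1-2, RPA2 in HN6 siFAT1-2, RFC4 in HN30, CLSPN and WDHD1 between the siRNAs, and PRIM2, RPA2 and FEN1 between the NC groups. With GC correction the interaction had 1 and HN6 siFAT1-2 had 2, and with the block as well HN30 siFAT1-2 had 9. Leaving out both HN6 libraries that stood apart gave 9 over both lines, 0 in HN6, 4 for the interaction, 4 with siFAT1-2, 18 between the siRNAs, 0 for HN6 siFAT1-2, where 8 were higher in place of 3, and 4 between the NC groups. It turned the median log2 fold change of the members in HN6 to 0.18, and leaving out 1 library at a time gave medians of -0.50 to 0.016 there.

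For single genes in KD against NC, GC correction turned ORC2 to -0.15 (-0.10 with the block) and TIPIN to -0.15 (-0.16), and limma-voom turned TIPIN to -0.075. Leaving out 1 library gave -0.032 to 0.28 for ORC2, -0.46 to 0.089 for CDC7, -0.63 to 0.16 for DBF4 and -0.14 to 0.25 for TIPIN. The causes were not tested.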
